A study of Mus musculus with 8 samples.

Results

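The regions described are all 1691 peaks of the H3K36me2 table, out of 7689 peaks listed for 3 histone marks, and each carries 1 value from cells with wild-type histone H3.3 and 1 from cells with the K36M mutant. No peak was left out, and no value was 0. The cells were C3H10T1/2, a line of mesenchymal progenitors from a C3H mouse embryo, at passages 10 to 15. In the H3.3WT group they stably expressed wild-type H3.3 with a FLAG-HA tag, and in the H3.3K36M group the same tagged histone with lysine 36 changed to methionine. The sources used here do not say whether either line was 1 clone. The endogenous histone genes were not named as altered in either line. Chromatin cut to mononucleosomes was mixed with S2 chromatin of Drosophila at 5% of the mouse amount, then precipitated with 1 lot of antibody against H3K36me2. There was 1 library per genotype, so nothing below has a replicate check and no test between genotypes was possible. The labelled cell type could not be checked against marker genes, since the data hold no expression values and no gene annotation of their build (mm9) was used.

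Histone H3 carries methyl groups at lysine 36 in 3 states. The dimethyl state is laid down mainly by the NSD family of enzymes and by ASH1L, in broad stretches over genes and over the space between them. The trimethyl state is made by SETD2, which travels with the elongating RNA polymerase and marks the bodies of transcribed genes. The K36M mutant, known from chondroblastoma, a cartilage tumour of bone, lowers methylation of this lysine on the other histones of the cell because it binds and blocks the methyltransferases. H3K36me2 hinders Polycomb repressive complex 2, the enzyme that writes H3K27me3, on the same histone tail.

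H3K36me2 domains had nearly the same height in the WT library and lost most of it in the K36M library. In WT the median peak held 42.6 spike-in normalized reads per kb, with quartiles of 39.4 and 47.0 and a full range of 28.8 to 168. In K36M the median was 10.3 reads per kb, the quartiles were 8.73 and 12.4, and the range was 4.06 to 76.0. The libraries overlapped little, as 53 of the 1691 peaks had a K36M density above the lowest WT density of any peak. Relative to its level, density varied more between peaks in K36M: the 90th percentile was 2.13 times the 10th, against 1.53 times in WT. A normalized read is a read multiplied by the authors' spike-in factor, read here as 1.08 in WT and 0.52 in K36M, so the median peak rests on 562 and 306 reads. A peak was called lower by a factor of at least 2 or 4 without a test; 97.0% of all peaks passed the first threshold and 59.0% the second, and 2.96% lay under the first, while no peak was higher in K36M. Stretches with less H3K36me2 than the peak caller's limit are not in the table, and the narrow WT range describes listed peaks only.

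**Figure D1:**
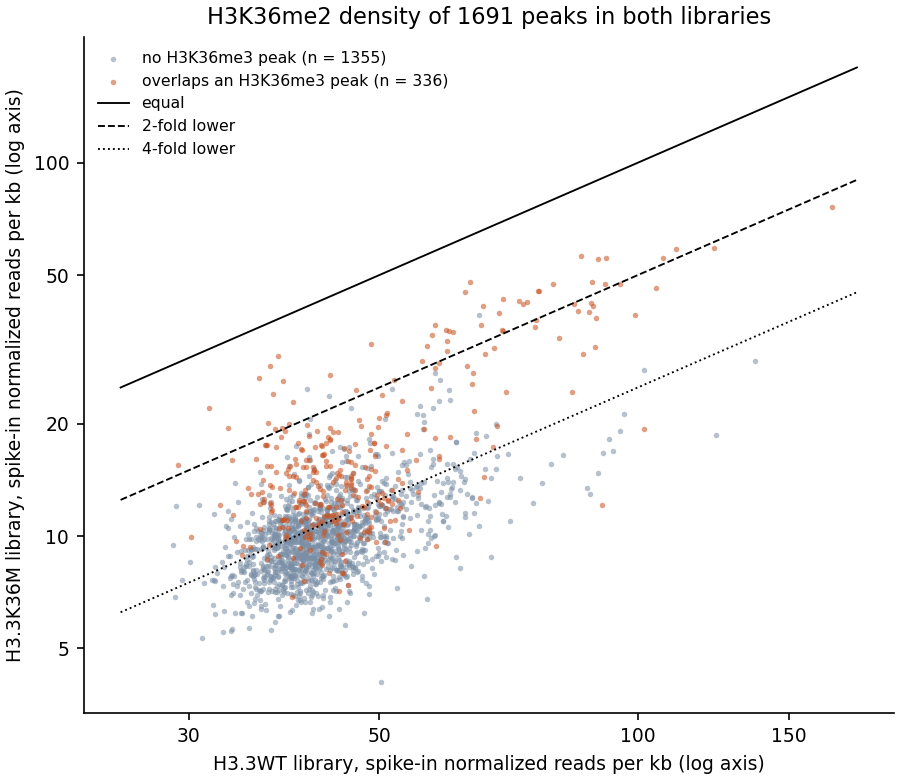
H3K36me2 density of each of the 1691 peaks in the H3.3WT library (x axis) and the H3.3K36M library (y axis), in spike-in normalized reads per kb on log axes; each point is 1 peak, coloured by whether it overlaps an H3K36me3 peak, and lines mark equal, 2-fold lower and 4-fold lower values. Most points lie near the 4-fold line around 42.6 reads per kb in WT, and a smaller group of dense peaks that overlap H3K36me3 lies near the 2-fold line.

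The relation of density to loss depended on which density was used. Split into 5 classes of equal number by the geometric mean of both densities, the densest class had a median log2 ratio 0.67 above the sparsest, −1.64 against −2.30. Spearman's rho between WT density and the log2 ratio of K36M over WT was −0.04 over the 1691 peaks, a description across peaks that share both libraries. Split by WT density alone, the classes had median log2 ratios of −2.02, −2.04, −2.08, −2.13 and −2.05 from the sparsest class to the densest. In the same split by K36M density the median ran from −2.39 in the lowest class to −1.49 in the highest. WT density is the denominator of the ratio and K36M density its numerator, so by construction the split by WT density pulls the densest class down and that by K36M density pulls it up.

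The densest 10% of peaks in WT, 169 peaks above 56.2 reads per kb, differed by whether they met H3K36me3. In the 69 of them that overlapped an H3K36me3 peak, the median density was 69.7 reads per kb in WT and 35.7 in K36M, a 2.08-fold difference. Of these 69 peaks, 10 lay in the cluster on chromosome 4 and 9 in that on chromosome 5, both described below. The medians without these clusters were not computed. In the other 100 of the 169, the median density was 61.2 in WT and 13.9 in K36M, a 4.73-fold difference. The 4 densest peaks split the same way. The densest of all, on chromosome 1 from 26742800 to 26745399, had 168 reads per kb in WT and 76.0 in K36M and lay wholly inside H3K36me3. A peak on chromosome 10 from 80640400 to 80641999, also wholly inside H3K36me3, had 123 and 59.2. By contrast, a peak on chromosome 13 from 109503200 to 109504399 with no H3K36me3 had 137 reads per kb in WT and 29.5 in K36M. One on chromosome 1 from 96811800 to 96812999, also without it, had 123 and 18.6. The former pair was 2.21-fold and 2.08-fold lower, the latter 4.64-fold and 6.62-fold lower. The counting intervals of their ratios (0.392 to 0.521 and 0.390 to 0.595, against 0.159 to 0.289 and 0.105 to 0.214) do not overlap; they are exact Clopper-Pearson 95% intervals and cover counting error only.

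At the other end, the 4 sparsest WT peaks held 28.8 to 29.1 reads per kb. They lay on chromosomes 7, 8, 13 and 11 and were 3.05-fold, 4.21-fold, 2.41-fold and 1.87-fold lower in K36M. The last of them, on chromosome 11 from 30161000 to 30170599, was the only one that met an H3K36me3 peak, over 56.3% of its length.

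H3K36me2 peaks ran from 1.2 kb to 442 kb, and the long ones held most of the signal. The quartiles of length were 6.6 and 32.0 kb around a median of 14.4 kb, and 60 peaks were at least 100 kb long. The longest 10%, 169 peaks, held 40.1% of the WT signal in the table. In the H3K36me3 and H3K27me3 tables the longest 10% held 28.8% and 32.6%. In 5 length classes of equal number, the shortest 339 peaks (up to 5.4 kb) held 3.00% of the WT signal of H3K36me2 and the longest 338 (from 39.8 kb) 58.8%.

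Short and long domains lost the mark to the same median extent. From the shortest class to the longest, the median peak was 4.28-fold, 4.15-fold, 4.11-fold, 4.13-fold and 4.31-fold lower in K36M, so the longest and the shortest class differed by −0.0095 on the log2 scale. What changed with length was the spread: the SD of the log2 ratios was 0.50 in the shortest class and 0.33 in the longest. Counting error alone would give 0.22 and 0.051, so both spreads were larger than that error. Of the 50 peaks less than 2-fold lower, 16 were in the shortest class and 2 in the longest. The shortest class was also denser in WT, with 50.9 reads per kb at the median against 40.8 to 42.7 in the other classes. The likeness of the medians was found with all peaks and without a pseudocount. With a pseudocount of 38.5 normalized reads the longest minus the shortest class was −0.68, and it was −0.19 when peaks of less than median signal were left out. The pseudocount is added to the summed signal of a peak, so by construction it shrinks the ratios of short peaks most.

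**Figure D2:**
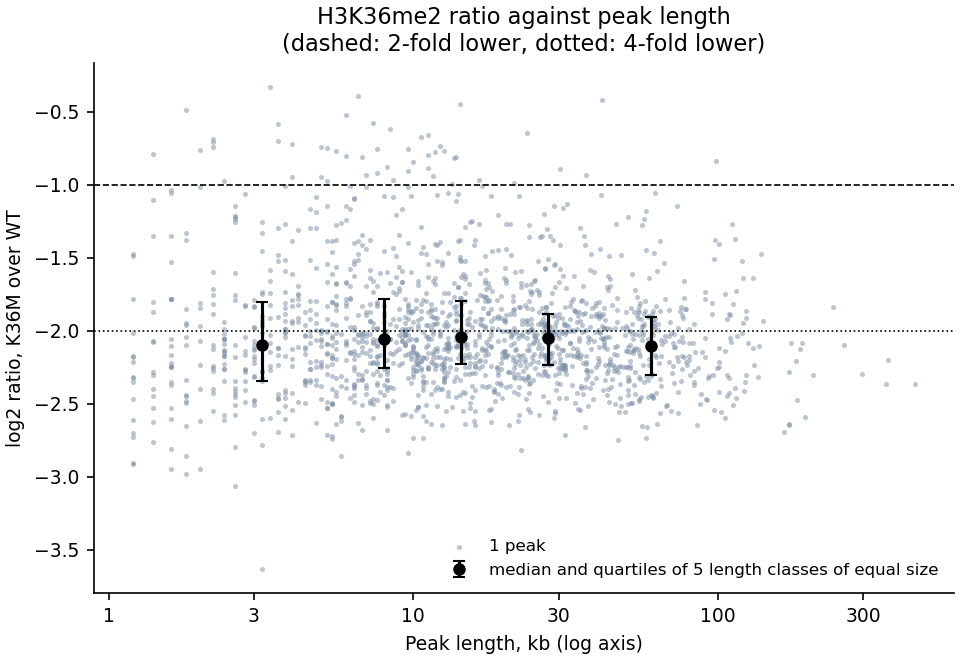
log2 ratio of K36M over WT (y axis) against the length of each H3K36me2 peak in kb (x axis, log scale); small points are single peaks, and black points with bars are the median and quartiles of 5 length classes of equal number. The 5 medians lie between −2.11 and −2.04, while the cloud narrows toward long peaks.

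The 4 longest peaks had between 3043 and 5226 normalized reads left in K36M. The longest, on chromosome 11 from 111429600 to 111871999, spanned 442 kb, and its signal was 22543 normalized reads in WT against 4377 in K36M. The second, of 363 kb, lay on chromosome 10 from 83255200 to 83617799, had the higher density of 66.3 reads per kb in WT against 49.6 to 51.0 in the others, and was covered by H3K36me3 over 55.1% of its length. All 4 were 4.60-fold to 5.15-fold lower. At the lower limit of length, 16 peaks were 1.2 kb long, and the 4 of them on chromosomes 1 and 11 that were taken as examples had WT signals of 82.1 to 148 normalized reads and K36M signals of 14.6 to 22.4. These rest on 28 to 43 reads in K36M, and their ratios have wide intervals, such as 0.0845 to 0.205 for the peak on chromosome 11 from 67491400 to 67492599. That peak was 7.49-fold lower although H3K36me3 covered its whole length.

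Many of the domains stood in blocks. Neighbouring peaks with a gap of at most 50 kb were joined, which gave 291 blocks of 2 to 10 peaks. They held 740 peaks (43.8%), 58.6% of the WT signal and 57.5% of the covered length. Of the blocks, 199 were pairs, 92 had 3 peaks or more, and the median span was 86.4 kb. No gap between peaks in any of the 3 tables was under 5200 bp. The number of blocks follows the gap allowed, with 187 blocks and 39.8% of the WT signal at 20 kb and 358 blocks and 82.2% at 200 kb.

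Peaks in blocks were longer than lone peaks but were reduced to the same degree. Their median length was 21.6 kb against 11.2 kb for the 951 lone peaks. Their median log2 ratio was −2.06 (quartiles −2.26 and −1.86) against −2.07 (−2.26 and −1.83). Median densities were 43.0 and 42.0 reads per kb in WT, and 10.3 and 10.2 in K36M. The difference of 0.0063 turned to −0.053 and −0.027 with gaps of 20 and 200 kb. Within the 92 blocks of 3 or more peaks, the 184 outermost peaks had a median of −2.11 and the 158 inner ones −2.16.

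The extent of loss was shared between neighbours. Pairs of adjacent peaks with a gap of up to 10 kb differed by a median of 0.12 in log2 ratio, in either direction, which is a factor of 1.09. The median difference was 0.15 for gaps of 10 to 20 kb, 0.16 for 20 to 50 kb, 0.18 for 50 to 200 kb, 0.26 for 200 to 1000 kb and 0.28 beyond that. Over all pairs of H3K36me2 peaks, near or far, it was 0.33. Counting error also grew along this series, as distant neighbours were shorter: alone it would give 0.079 at up to 10 kb and 0.13 beyond 1000 kb. Within blocks the SD of the log2 ratios around each block's mean was 0.22, against 0.39 over all block peaks, with 0.11 from counting. H3K36me3 had 0.14 for gaps up to 10 kb and 0.23 over all pairs, and H3K27me3 0.15 and 0.30.

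**Figure D3:**
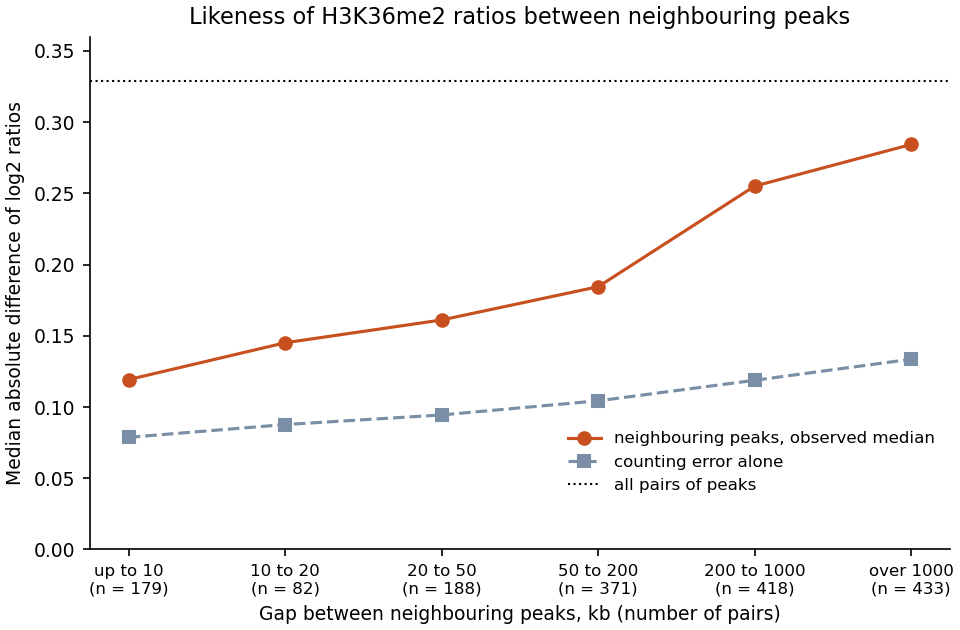
Median absolute difference of log2 ratios between adjacent H3K36me2 peaks (y axis) by the gap between them in kb (x axis, number of pairs in brackets), beside the value that counting error alone would give and the value over all pairs of peaks (dotted line). The observed median runs from 0.12 at gaps up to 10 kb to 0.28 beyond 1000 kb, under the 0.33 of all pairs.

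The block of longest span lay on chromosome 11 from 111391600 to 112539999. It had 4 peaks that filled 98.3% of its 1148 kb, and their summed signal was 56452 normalized reads in WT against 11170 in K36M. Its 3 long members had nearly the same K36M density, 9.62 to 10.2 reads per kb, and the short first one, of 31.4 kb, had 9.97. That first member was the least reduced, 4.05-fold, and had the lowest WT density, 40.4 reads per kb against 49.6 to 51.0 in the others.

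Chromosome 15 held 3 of the 6 blocks of longest span. The first, from 53888800 to 54653399, joined 10 peaks, the most of any block. Its members had 42.1 to 49.3 reads per kb in WT and 7.05 to 8.98 in K36M and were 5.04-fold to 6.56-fold lower. The block from 60934800 to 61660799 had 6 peaks and no H3K36me3 peak in any of them. Along it the members were 6.26-fold, 6.47-fold, 5.88-fold, 5.65-fold, 5.18-fold and 4.63-fold lower, so the loss was graded within 1 block. WT density went from 47.8 reads per kb in its first member to 40.4 in its last, while K36M density went from 7.63 to 8.72. These blocks had the lowest summed ratios of the 16 blocks with at least 5 peaks, 0.171 (0.167 to 0.175) for the one from 60934800 and 0.172 (0.168 to 0.176) for the one from 53888800, whose intervals overlap.

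The block from 59240200 to 59684599 on chromosome 15 was less uniform. Its second member, 96.8 kb long and wholly covered by H3K36me3, was 2.85-fold lower, from 42.2 to 14.8 reads per kb. The last 3 members, of which 1 met H3K36me3 over 1.02% of its length, were 4.64-fold, 4.77-fold and 4.51-fold lower. Between them stood a member without H3K36me3 that was 3.84-fold lower, and the 4.6 kb first member, wholly covered, was 4.01-fold lower.

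The other named blocks lay on chromosomes 4, 5, 8, 10 and 11. On chromosome 4 from 55943800 to 56517999, 6 peaks without H3K36me3 were 4.99-fold to 5.96-fold lower, and their K36M densities of 8.48 to 9.55 reads per kb lay close together. On chromosome 10 from 37245200 to 37623399, 7 peaks without H3K36me3 were 5.24-fold to 6.13-fold lower. On chromosome 10 from 83238000 to 83785599, the block around the second-longest peak had 5 members that were 4.12-fold to 5.25-fold lower. Among the blocks of at least 5 peaks, 3 stood out by the least loss. On chromosome 11 from 107981800 to 108135399, 5 peaks that lay wholly inside H3K36me3 were 2.39-fold to 2.66-fold lower, a narrow range at about 40.4 reads per kb in WT and 15.8 in K36M. On chromosome 8 from 129671000 to 129815399, 5 peaks without H3K36me3 were 2.54-fold to 4.26-fold lower. Of all blocks with at least 5 peaks the highest ratio, 0.503 (0.475 to 0.532), was on chromosome 5 from 14923000 to 15026199, where 5 peaks had 63.3 to 95.5 reads per kb in WT and 28.6 to 48.1 in K36M.

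**Figure D4:**
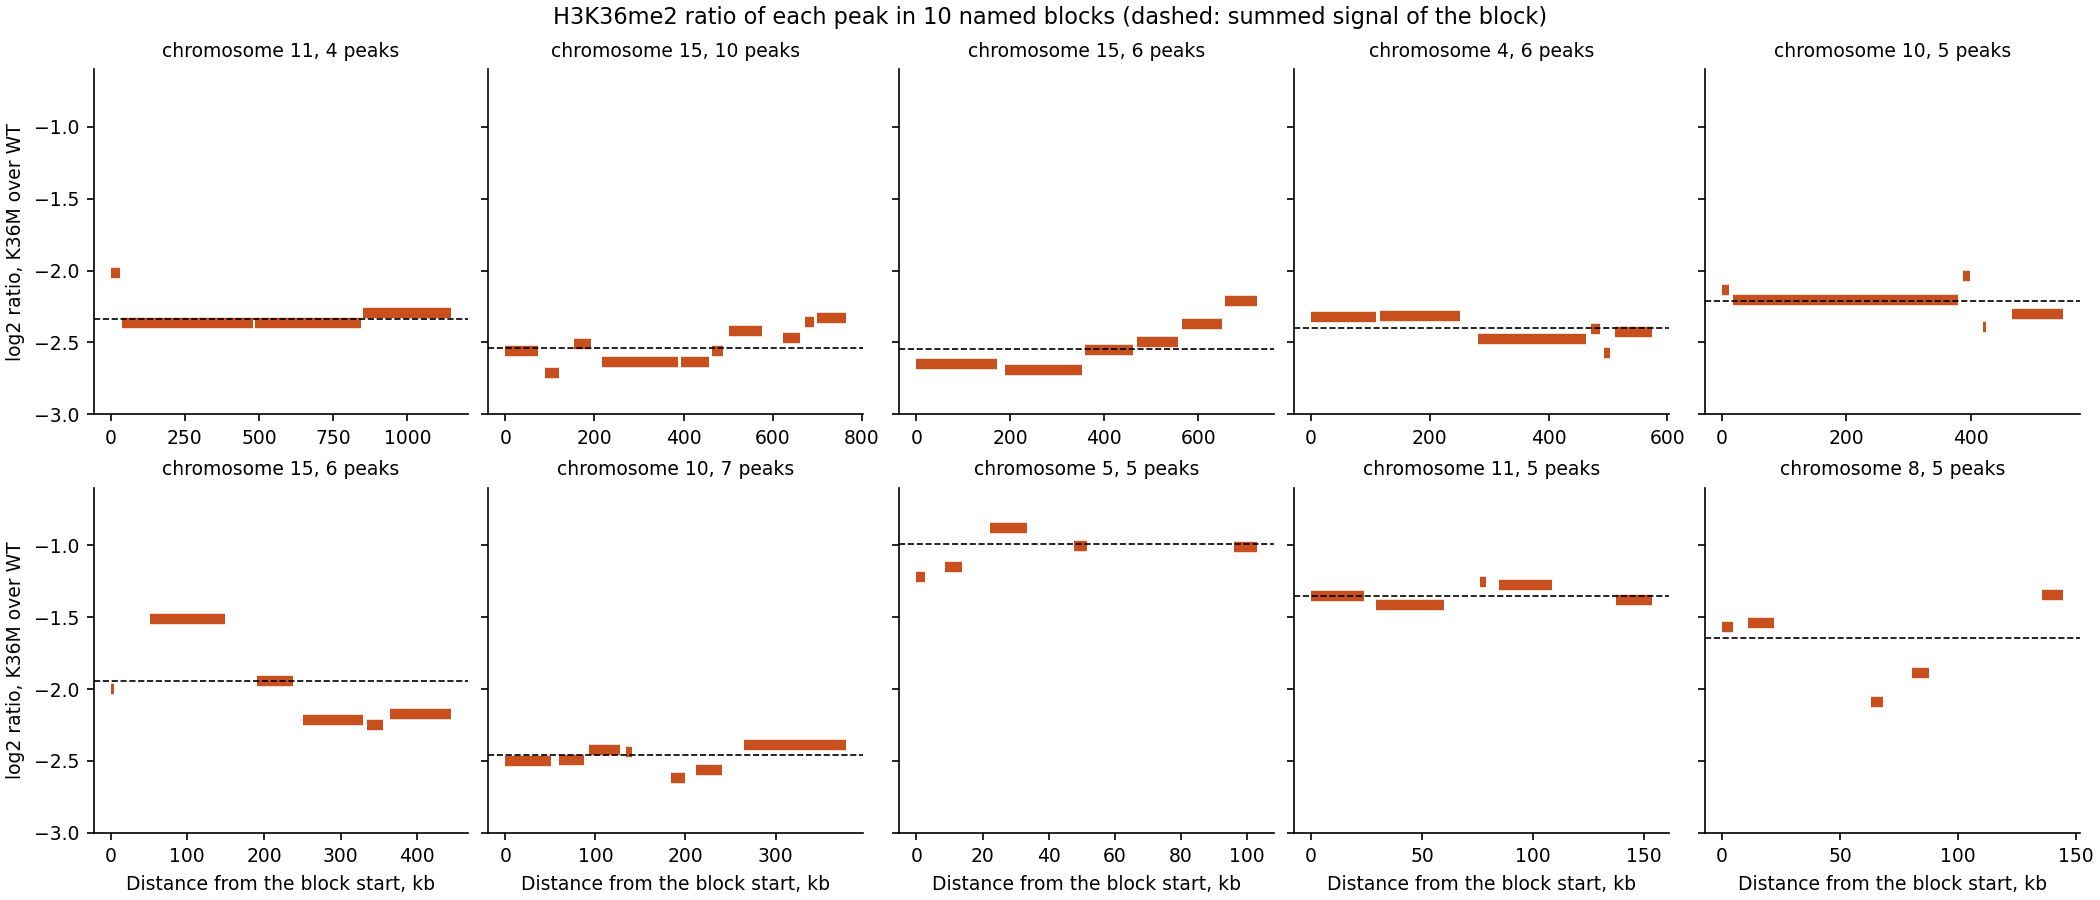
log2 ratio of K36M over WT (y axis) of every H3K36me2 peak in 10 named blocks, against distance from the start of the block in kb (x axis); each bar spans 1 peak, and the dashed line is the ratio of the block's summed signal. Members of a block stay close to its line in most panels, and the block on chromosome 15 with 6 peaks over 726 kb is graded from 6.47-fold to 4.63-fold lower.

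The listed domains were concentrated on a few chromosomes. Chromosome 15 held 291 peaks, 17.2% of the list, and 27.6% of its WT signal. Its share of the H3K36me3 list was 5.58% and of the H3K27me3 list 11.9%. Chromosomes 15, 10, 2, 11 and 4 together had 51.2% of the peaks. Other chromosomes were nearly bare, with 20 peaks on chromosome 7, 19 on chromosome 6, 15 on chromosome 18 and 2 on chromosome X, where the H3K36me3 list had 249, 182, 118 and 67. Peaks on chromosome 15 were also longer, with a median of 29.0 kb against 5.0 to 21.3 kb on the other chromosomes, and 64.9% of them stood in blocks. Input libraries, which would show how many copies of each chromosome these cells carry, were not analysed here.

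Chromosomes were alike in WT density and less so in K36M. Over the 19 chromosomes with at least 10 peaks, the median WT density was 40.8 to 44.6 reads per kb, and the median K36M density 8.31 to 12.5. Chromosome 9 had the lowest median log2 ratio, −2.27 (36 peaks), followed by chromosome 7 with −2.25 (20 peaks) and chromosome 3 with −2.21 (30 peaks). Chromosomes 17 and 11 had the highest, −1.88 (103 peaks) and −1.89 (136 peaks). The distributions overlapped: the SD between peaks was 0.35 on chromosome 9 and 0.33 on chromosome 17. H3K36me3 moved with this order only in part, since 57 of the 136 peaks on chromosome 11 (41.9%) overlapped it and 23 of 103 on chromosome 17 (22.3%), against 4 of 36 on chromosome 9 and none on chromosomes 7 and 3. Among peaks without H3K36me3 the chromosome medians still ran from −2.31 to −1.94. The pair on chromosome X were a 13.8 kb peak with 74.3 reads per kb in WT and 42.3 in K36M, and a 1.2 kb peak with 92.7 and 18.2.

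Along chromosome 15, the loss was largest in the middle, from 40 to 60 Mb. From 40 to 50 Mb the median peak was 5.48-fold lower (28 peaks), and from 50 to 60 Mb 5.35-fold (58 peaks). From 70 to 80 Mb it was 3.64-fold lower (37 peaks) and from 80 to 90 Mb 3.78-fold (21 peaks). Median WT densities in these 4 stretches were 42.7, 44.2, 46.6 and 45.7 reads per kb, and K36M densities 8.19, 8.51, 13.1 and 11.8. In the same order, 17.9%, 24.1%, 48.6% and 57.1% of their peaks overlapped H3K36me3, and position was not separated from this overlap. The median peak was 4.86-fold lower from 20 to 30 Mb and 4.87-fold from 60 to 70 Mb. All 4 of the lowest ratios among peaks of at least median signal came from the middle, between 49909800 and 54010199, and were 0.142 to 0.152.

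Peaks covered by H3K36me3 over more of their length kept more H3K36me2, except that those wholly covered kept less than those covered over 75% or more but not wholly. Of the 1691 peaks, 336 (19.9%) overlapped 326 (6.52%) of the H3K36me3 peaks by at least 1 bp, and the shared sequence made up 9.35% of the H3K36me2 length. Peaks without H3K36me3 had 42.0 reads per kb in WT and 9.85 in K36M at the median. With up to 25% of their length covered, the 94 peaks had 45.0 and 11.0, and the 52 with 25 to 50% had 45.2 and 13.3. The 32 peaks covered over 50 to 75% had 42.8 and 14.8. Among the 131 peaks wholly inside H3K36me3 the medians were 44.6 and 18.2. In median fold these classes were 4.37-fold, 4.03-fold, 3.24-fold, 2.80-fold and 2.45-fold lower. The 27 peaks covered over 75% but not wholly were 2.14-fold lower and also denser in WT, at 56.4 reads per kb. Several of these 27, and several of the 131, lay in the clusters on chromosomes 4 and 5 described below. The share of peaks at least 4-fold lower, 59.0% over the list, was 68.5% without H3K36me3 and 5.34% in those wholly inside it.

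Cover and length were entangled. In the shortest length class, the 60 that met H3K36me3 were covered over 100% of their length at the median, and their median log2 ratio was 0.86 above that of the 279 others. In the longest class the 90 overlapping peaks were covered over 17.4% and lay 0.27 above the 248 others. In all 5 length classes the overlapping peaks had the higher median. They also had it on each of the 14 chromosomes with at least 5 overlapping peaks, by 0.20 to 1.17. The excess was largest on chromosome 4 (medians −1.08 and −2.25), followed by chromosome 5 (−1.09 and −2.21). Of the 28 overlapping peaks on chromosome 4, 10 lay in 1 cluster, as did 9 of the 11 on chromosome 5. Both clusters are described below, and the excess without them was not computed.

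Among peaks outside H3K36me3, those far from it had lost the most. The 167 peaks within 10 kb of an H3K36me3 peak and the 309 at 10 to 50 kb had medians of −2.06 and −2.05, with 10.6 and 10.3 reads per kb in K36M. The median was −2.11 at 50 to 200 kb (500 peaks), −2.26 at 200 to 1000 kb (334 peaks) and −2.32 beyond (45 peaks), where K36M density was 7.83. WT density changed less over the same distances, from 43.0 to 40.5 reads per kb. The median of the 379 peaks more than 200 kb away minus that of the 476 within 50 kb was −0.22, and −0.21 without chromosome 15. The H3K36me3 list has 4999 peaks and may have been ended at a set length, in which case some distances are too long. Peaks at least 4-fold lower made up 59.9% within 10 kb and 91.1% beyond 1000 kb.

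**Figure D5:**
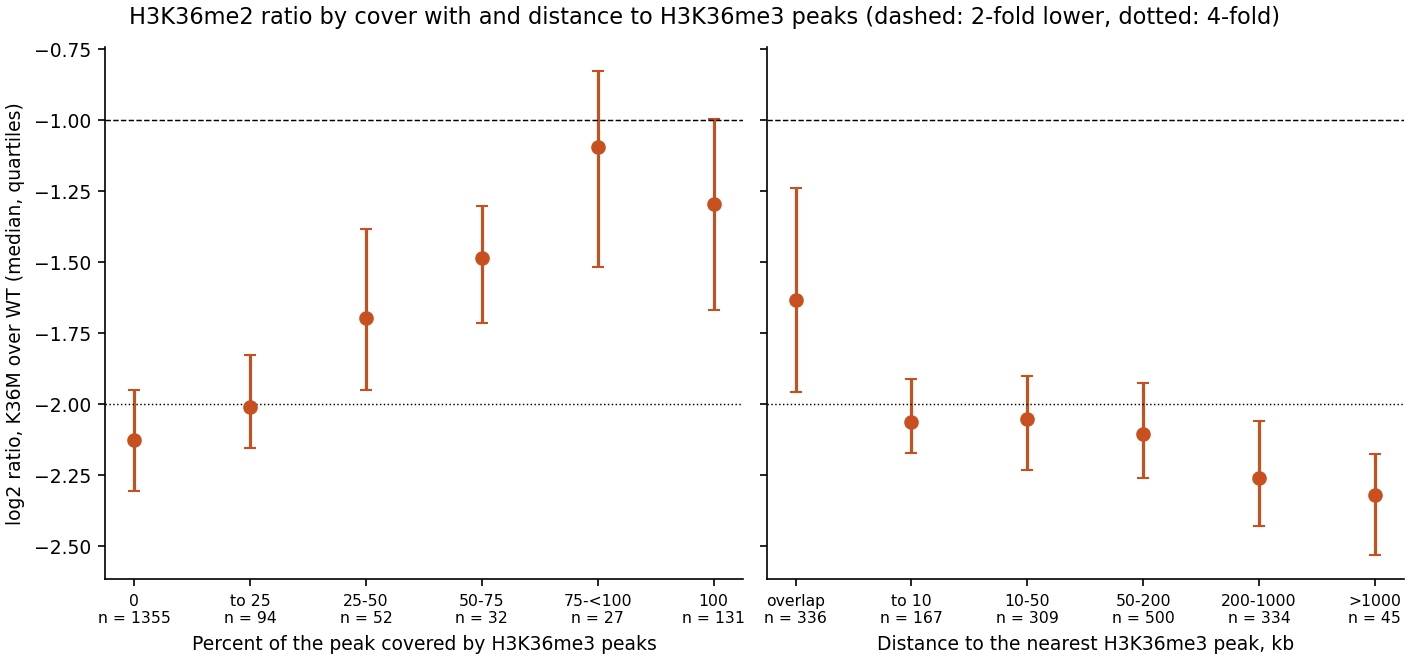
Median and quartiles of the H3K36me2 log2 ratio (y axis) by the percent of the peak covered by H3K36me3 peaks (left) and by the distance in kb to the nearest H3K36me3 peak (right), with the number of peaks under each point. The medians go from −2.13 without cover to −1.09 for peaks covered over 75% but not wholly and −1.30 for those wholly covered, and from −2.06 within 10 kb to −2.32 beyond 1000 kb.

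Over the 336 peaks that overlapped H3K36me3, the ratios of the marks were correlated. Pearson's r was 0.58 and Spearman's rho 0.51 over these peaks, each paired with the H3K36me3 peak it shared most bases with. Some pairs share an H3K36me3 peak, as the partners chosen in this way were 302 different peaks, and the libraries of the marks are separate. The median log2 ratios in these pairs were −1.63 for H3K36me2 and −1.75 for H3K36me3, and H3K36me2 was the more reduced mark in 138 of the 336. In the 289 pairs with H3K36me2 at least 2-fold lower, r was 0.51 and rho 0.42. In the 47 pairs less than 2-fold lower they were −0.26 and −0.16. Those pairs were picked by the H3K36me2 ratio itself, which narrows its range. The SD of that ratio was 0.17 over all 50 peaks less than 2-fold lower, with 0.11 from counting, against 0.49 over the 336. The values for the 47 pairs therefore cannot tell whether the marks were related there.

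The 50 peaks less than 2-fold lower were short and dense, and nearly all overlapped H3K36me3. Their median length was 7.9 kb and their median density 60.0 reads per kb in WT and 35.3 in K36M. Of the 50, 47 overlapped H3K36me3, 33 of them over their whole length, and 9 overlapped H3K27me3. Over the whole list, 19.9% of peaks overlapped H3K36me3, 7.75% lay wholly inside it, and 2.37% overlapped H3K27me3. WT density was above the 90th percentile of all H3K36me2 peaks in 30 of them. Chromosome 4 held 14, out of 116 listed peaks there, and chromosome 16 held 6, out of 104. Of the 14 on chromosome 4, 11 lay in the cluster described below. None lay on chromosomes 10, 3, 7, 9, 18 or 19, which list 170, 30, 20, 36, 15 and 52 peaks. The highest ratio, 0.794, was found for a 3.4 kb peak on chromosome 12 (103015200 to 103018599), whose signal went from 130 normalized reads to 103. Its counting interval, 0.630 to 1.01, includes equality. A 41.8 kb peak on chromosome 1 from 33835400 to 33877199 had a ratio with a narrower interval, 0.712 to 0.788, at 63.8 reads per kb in WT and 47.8 in K36M. Other peaks of high ratio and at least median signal were on chromosome 15 from 76956000 to 76970199, with 36.2 and 26.5 reads per kb, and on chromosome 4 from 40773800 to 40797399, with 37.6 and 24.1, both wholly inside H3K36me3. The WT densities of these peaks on chromosomes 15 and 4 were near the 10th percentile of the list, 36.7. The remaining peak of this set, on chromosome 8 from 19781000 to 19789399, was dense, with 86.0 and 56.2 reads per kb. It also lay wholly inside H3K36me3.

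Of these 50 peaks, 31 were lone, with no other H3K36me2 peak within 50 kb, as were 951 of the 1691 in the list. In a pair of clusters, singled out after their values were seen, the other marks also stood above the median ratio of their lists. On chromosome 4 from 145019600 to 147169599, all 11 listed peaks were less than 2-fold lower, by 1.60-fold to 1.93-fold, the longest unbroken run of such peaks in the list (the next had 3), with medians of 60.3 reads per kb in WT and 35.7 in K36M. The 12 H3K36me3 peaks in that stretch had a median log2 ratio of −0.87, against −1.71 over all H3K36me3 peaks, and 26.2 reads per kb in WT against 18.8. The only H3K27me3 peak there was higher in K36M, with 8.18 reads per kb in WT and 12.3 in K36M. Its log2 ratio was 0.59, against a median of −0.08 in its list. On chromosome 5 from 14923000 to 15202399, 9 H3K36me2 peaks had 63.3 to 111 reads per kb in WT, 28.6 to 58.6 in K36M, and were 1.84-fold to 2.38-fold lower. There the 11 H3K36me3 peaks had a median of −0.94, and the 6 H3K27me3 peaks 1.07, with 12.0 reads per kb in WT and 25.3 in K36M. Of these 9 peaks, 2 were less than 2-fold lower. Whether the number of copies of the underlying sequence, or how well reads could be placed there, differed from the rest of the genome was not tested, and the input libraries were not analysed here.

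At the opposite end, the 3 lowest ratios belonged to lone peaks with 20 to 34 reads in K36M. A 3.2 kb peak on chromosome 3 from 150822800 to 150825999 was 12.4-fold lower, from 161 to 13.0 normalized reads, with a counting interval of 0.0507 to 0.124 for the ratio. A peak on chromosome 9 from 110915000 to 110917599 was 8.37-fold lower with an interval of 0.0796 to 0.175. Among peaks of at least median signal the lowest ratio was 0.142 (0.124 to 0.162), for 22.6 kb on chromosome 15 from 50050600 to 50073199 with 44.9 reads per kb in WT and 6.37 in K36M. The 119 peaks with a log2 ratio of −2.5 or lower had a median of 7.20 reads per kb in K36M and 44.9 in WT. Of them 7 (5.88%) overlapped H3K36me3, against 19.9% of the whole list.

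Overlap with the listed H3K27me3 peaks was counted in the same way, by at least 1 bp. The H3K27me3 list has 999 peaks over 33.7 Mb and, like the H3K36me3 list, may have been ended at a set length. The overlap that its size alone would give was not computed, so the count cannot be called low or high. In all, 40 H3K36me2 peaks (2.37%) overlapped 38 (3.80%) of the H3K27me3 peaks, and 25 of the 40 also overlapped H3K36me3. Those 25 were 2.15-fold lower at the median, from a WT median of 63.8 reads per kb. Several of the 25 lay in the cluster on chromosome 5 described above. Peaks within 10 kb of H3K27me3 but not touching it had a median log2 ratio of −2.01 (24 peaks). It was −1.93 at 10 to 50 kb (59 peaks), −2.01 at 50 to 200 kb (284 peaks), −2.07 at 200 to 1000 kb (665 peaks) and −2.14 beyond (619 peaks). These distance classes include peaks that overlap H3K36me3, 14 of the 59 at 10 to 50 kb and 71 of the 619 beyond 1000 kb.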

How the data were processed

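The authors deposited 1 signal per peak and library, read counts scaled to the Drosophila spike-in per the file headers. Bowtie 1.0.0 and the builds dm6 and mm9 are named by the submitters' processing notes. Which caller made the peaks, from which library, and how the spike-in factor was computed is not stated by any source used here. All values of a column are whole multiples of 1 step, which was taken as the factor of that library; reads inside H3K36me2 peaks then number 1770960 in WT and 915902 in K36M. Coordinates are as deposited, on windows of 200 bp counted from 0, so a browser position is 1 higher.

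Length was end minus start plus 1, density was signal per kb, and ratios were taken without a pseudocount. Intervals of single ratios are exact Clopper-Pearson 95% intervals from reads. Counting SDs follow from Poisson counts. Named regions were the 4 longest, 4 shortest (ties in order of chromosome name), 4 densest and 4 sparsest peaks, the 4 lowest and 4 highest ratios of at least median signal, the 6 longest blocks, and the 3 lowest and 3 highest ratios of blocks of at least 5 peaks; the 3 lowest and 3 highest ratios of all peaks, the pair on chromosome X and both clusters on chromosomes 4 and 5 were added later. Members and lists were chosen with earlier results of these data known. No peak was given a gene name or a sequence. The calculations were tested on simulated counts. Python 3.11.15, numpy 2.4.6, pandas 2.3.3, scipy 1.17.1 and matplotlib 3.10.9 were used.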

Additional observations from a re-analysis of the deposited data

How the results depend on the processing

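Sizes on the spike-in scale rest on 1 factor per library. With both libraries scaled to the same total, the total ratio is 1 by construction, the median log2 ratio −0.062 and the number of peaks at least 4-fold lower 0. Differences between peaks do not change with this scaling. A pseudocount at the 5th percentile gave a median of −1.76 and 375 peaks at least 4-fold lower, and leaving out peaks of less than median signal, so that fewer were counted, gave 491. The total ratio was 0.252 once the 1% with most signal was dropped. The longest minus the shortest length class was −0.68 with the pseudocount, which by construction shrinks the ratios of short peaks most. It was −0.19 among peaks of at least median signal, which were split anew into 5 length classes, and the cause of that was not tested. The densest of 5 classes by the geometric mean of both densities lay 0.665 above the sparsest. This was 0.900 by K36M density and reversed to −0.033 by WT density; as each density is part of the ratio, the split itself sets part of these values. With a gap of 20 kb there were 187 blocks with 39.8% of the WT signal, and at 200 kb they held 82.2%. The difference between block and lone peaks was small at each gap, with 0.0063 at 50 kb, −0.053 at 20 kb and −0.027 at 200 kb. Its change of sign therefore has little weight. Neighbours within 200 kb differed by 0.158. Alternatives added after the data were seen were limits to chromosomes with at least 10 peaks, to longer peaks (distance) and to peaks without H3K36me3 (neighbours), and the removal of chromosome 15 or of peaks less than 2-fold lower. The excess of peaks that overlap H3K36me3 over the others, 0.493, was 0.754 with at least 50% covered, 0.607 without chromosome 15 and 0.403 without peaks less than 2-fold lower. The highest and lowest chromosome differed by 0.691 with the 2 peaks of chromosome X, by 0.391 without it, and by 1.25 with the ratio of total signal per chromosome. Of 32 alternatives, 12 moved neither a value beyond its interval nor a count beyond 1.5 times. The 0.391 and 1.25 are among these 12 only because their interval rests on the 2 peaks of chromosome X and is wide. They do not show that the difference between chromosomes was stable. No paired analysis was possible because each group has 1 library, and no replicate could be left out.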
